A study of Homo sapiens with 9 samples.

Results

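The 6 libraries of PaTu 8988t cells exposed to a matrix with CPXM2, pooled over its wild-type and R213A forms, were compared with the 3 libraries on control matrix. All 9 libraries of the series entered the comparison. PaTu 8988t is an established human pancreatic adenocarcinoma line. The labels describe the matrices as overexpressing the protein (wild type 1 to 3, R213A 1 to 3) or as control (control 1 to 3). They name neither the cells that made the matrix nor the time spent on it, nor do they state that replicates are independent cultures. P-values therefore reflect only how these libraries vary among themselves, and that variation may be technical. The question asked was whether collagen that CPXM2 has aligned alters expression and signalling inside the tumour cells.

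The values were deposited as 2 tables. In the 4-library table are R213A 1, R213A 3, wild type 1 and control 1. In the 5-library table are R213A 2, wild type 2 and 3, and control 2 and 3. Each comparison was therefore formed within a table, as 3 CPXM2 libraries against 1 control in the first and as 3 against 2 in the second. Of 58735 listed genes, the 11193 with a mean of at least 1 FPKM (fragments per kilobase of gene, scaled to library size) over the 9 libraries were compared. A gene is called separated where every CPXM2 library lay beyond every control of its table, in the same direction in both tables. Differences are CPXM2 minus control on the log2(FPKM + 1) scale, which understates the change of genes with low values.

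CPXM2 is a secreted, carboxypeptidase-like protein with a discoidin domain, the kind of domain with which discoidin receptors grip collagen. Tumour cells sense collagen through integrins, which signal from focal adhesions, and through discoidin receptors such as DDR1. Cells adjust cholesterol synthesis through the transcription factor SREBP2, which switches on the genes of the pathway when sterols are scarce, and inflammatory chemokine genes through NF-kB.

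Recovered totals ranged from 15951927 to 18312806 reads, and 20059 to 21401 genes had a read. The cells' own CPXM2 gene was at 0 reads everywhere except R213A 3, which had 1, so the transcript does not check the labels of a matrix made elsewhere. The keratins KRT8 and KRT18 averaged 153 and 348 FPKM, whereas KRT19 and CDH1, markers of duct and epithelial cells, averaged 0.0217 and 0.0736 FPKM. None of 27 markers of fibroblasts, endothelium, immune cells or fat reached a mean of 1 FPKM, and the summed level of each of these lists was at most 1.03 FPKM in any library. Within the 5-library table, control 2 differed at least 2-fold from each of the other libraries in 376 to 416 genes, whereas the remaining 4 libraries differed from each other in 41 to 66. Differences against control 3 alone are therefore given beside most of those of the 5-library table. Among pairs of the 4-library table such counts spanned 387 to 2316. The smallest, 387, belonged to R213A 3 paired with control 1, whereas pairs of CPXM2 libraries there had 499, 553 and 1398. Wild type 1 and R213A 1 stood farther from control 1, at 1862 and 2316. By this count control 1 thus lay nearer to R213A 3 than either other CPXM2 library of that table did.

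No gene passed the pooled test. The limma fit over the 9 libraries, with the table as a term, called 0 of 11193 genes (0%), and its smallest adjusted p was 0.566. At an unadjusted p under 0.05 it listed 827 genes (7.39%), of which 306 (2.73%) stood higher and 521 (4.65%) lower on the CPXM2 matrices. limma-voom on the recovered reads also called 0 genes, with 546 at an unadjusted p under 0.05. The median 95% interval of a difference, before adjustment for the number of genes, reached 0.41 to either side, so smaller differences were not detectable in a typical gene. Larger ones went uncalled too, such as -1.31 for HMGCS1 (limma adjusted p = 0.566). The limma test of whether the difference itself differed between the tables called 0 genes (0%) at a smallest adjusted p of 0.159, with 2416 genes (21.6%) at an unadjusted p under 0.05. Within the 5-library table alone limma called 0 genes (0%), with 320 (2.86%) at an unadjusted p under 0.05. Without control 3 it called 5132 genes and without control 2 it called 3, but each of these fits has a lone control, whose spread is assumed to be that of the CPXM2 libraries. The test between the tables called 22 without control 3, with the same assumption. The pooled test called 5 genes with no filter on low values, each with 1 read per control library, and 4 with library weights.

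Direction alone set apart 977 genes (8.73%). Of these, 391 (3.49%) stood higher on both CPXM2 matrices in both tables, and 586 (5.24%) stood lower. Another 736 genes (6.58%) were separated in both tables in opposite directions: 347 (3.1%) stood higher in the 4-library and lower in the 5-library table, and 389 (3.48%) the reverse. Taken singly, the 4-library table with its lone control separated 71.2% of the genes in either direction, and the other table, with its pair of controls, separated 21.4%. Opposite directions were thus not much rarer than a single direction. Mean differences had the same sign in both tables for 5726 genes (51.2%), and across genes the differences of the tables correlated at -0.02, or 0.10 against control 3 alone. Genes are not independent replicates, and no test was made of these values. Fewer libraries leave more genes separated by construction: the count was 2345 without control 2, 3323 without control 3 and 1503 without wild type 2.

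The differences were larger in the 4-library table. There 1059 genes (9.46%) differed at least 2-fold from control 1, against only 38 (0.339%) that differed as much from the controls in the other. Without R213A 3 the first count was 1668. The median size of the difference among genes separated higher was 0.58 in the 4-library table, 0.21 in the other and 0.13 against control 3 alone. For those separated lower the same medians were 0.56, 0.19 and 0.09. Only 57 genes (0.509% of all tested, 5.83% of the separated genes) had a gap between CPXM2 and control libraries beyond the 95% counting interval of their reads in both tables, 15 higher (0.134%) and 42 lower (0.375%). The remaining gaps were within counting error in at least 1 table.

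**Figure D1:**
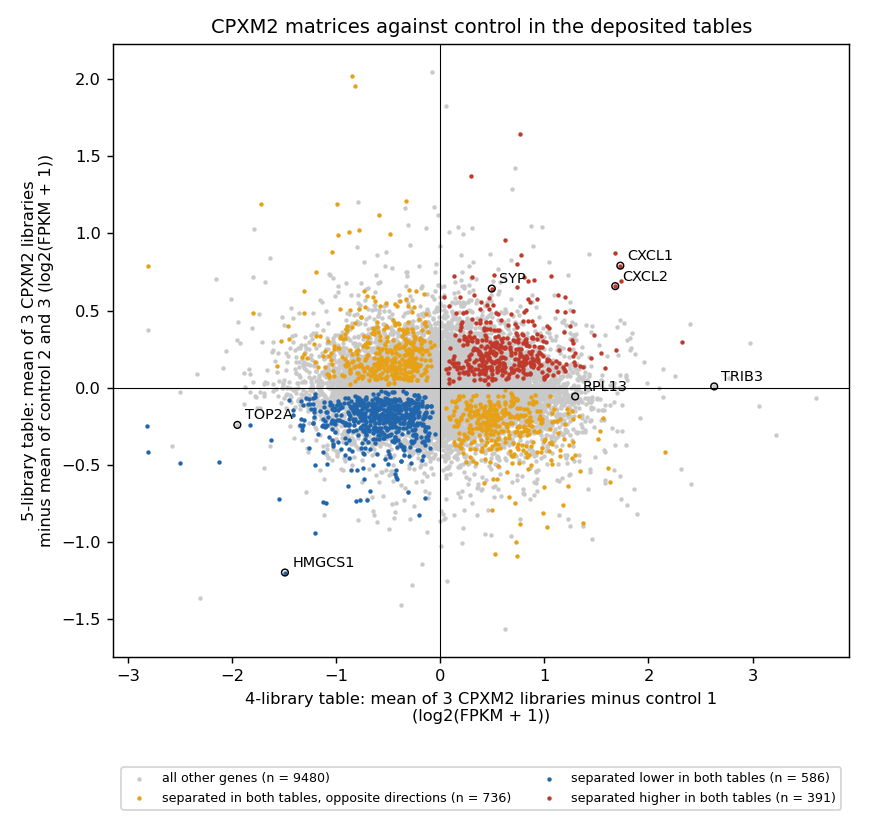
Each point is 1 of 11193 genes, with its difference from control 1 in the 4-library table on the horizontal axis and from the mean of control 2 and 3 in the 5-library table on the vertical axis, both on the log2(FPKM + 1) scale. Genes separated in a single direction (391 higher in red, 586 lower in blue) and in opposite directions (736 in orange) fill all 4 quadrants, HMGCS1 stands far down in both tables, and TRIB3 moves along the horizontal axis only.

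Genes of cholesterol synthesis and uptake stood lower on the CPXM2 matrices. Of 24 measured genes of this list, 8 (33.3%) were separated lower and 0 higher, against 5.24% and 3.49% of all genes tested. Among them were HMGCS1, IDI1, SC5D, INSIG1, STARD4 and SREBF2. None passed the limma test, with adjusted p between 0.566 and 0.585 in those named. In all, 20 of the 24 had a pooled difference below 0 (52.1% of all genes), with a median of -0.40 beside -0.02 over all genes. In bulk RNA, fewer cells that make a transcript and less of it per cell cannot be told apart. The list median was -0.33 in the 4-library table, -0.38 in the 5-library table and -0.03 against control 3 alone.

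HMGCS1 (ENSG00000112972, hg38 chromosome 5, 43289395 to 43313512, minus strand) makes the HMG-CoA from which the pathway starts. It read 13.7 FPKM in control 1 and 3.73, 3.97 and 5.08 FPKM in wild type 1, R213A 1 and R213A 3. In the 5-library table it read 394 FPKM in control 2 and 89.8 in control 3, against 82.8, 83.8 and 78.5 FPKM in wild type 2, wild type 3 and R213A 2. All 6 CPXM2 libraries thus lay below the controls of their table, but control 3 lay far nearer to the CPXM2 libraries than to control 2. The pooled difference was -1.31 ± 0.37 (SE; limma adjusted p = 0.566), or -1.49 in the 4-library table, -1.20 in the 5-library table and -0.14 against control 3 alone.

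The regulators of the pathway stood lower too. INSIG1, which holds SREBP back in the endoplasmic reticulum and is itself an SREBP target, read 12.2 FPKM in control 1 against 3.43, 6.28 and 6.32 in the CPXM2 libraries of that table. It read 337 and 129 FPKM in control 2 and 3 against 125, 127 and 119 FPKM. SREBF2, which encodes SREBP2, read 39.0 FPKM in control 1 against 26.6, 37.2 and 34.8, and 89.9 and 65.7 FPKM in control 2 and 3 against 64.6, 64.4 and 65.5 FPKM. R213A 2 lay just under control 3 here, so this separation is narrow. Once length and GC content were corrected for, SREBF2 and SC5D were no longer separated and INSIG1 was.

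STARD4, a carrier that moves sterols between membranes, read 10.2 FPKM in control 1 and 4.79, 4.50 and 6.14 FPKM in wild type 1, R213A 1 and R213A 3. It read 141 and 110 FPKM in control 2 and 3 against 103, 97.0 and 95.1 FPKM in wild type 2, wild type 3 and R213A 2. Pooled over the tables it differed by -0.54 ± 0.17 (SE; limma adjusted p = 0.566), and -0.15 against control 3 alone. The gaps of HMGCS1 and STARD4 exceeded the counting interval in both tables. PMVK, the phosphomevalonate kinase, was not separated and stood higher, with a pooled difference of 0.61 and a difference of 1.06 in the 4-library table.

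Fatty acid synthesis showed 3 separated genes of 14 (21.4%), all lower and none past the test, against 5.24% of all genes separated lower. They were ACLY, which supplies cytosolic acetyl-CoA, FASN, the fatty acid synthase, and the desaturase SCD. FASN read 38.5 FPKM in control 1 against 11.3, 33.1 and 28.6, and 497 and 211 FPKM in control 2 and 3 against 201, 189 and 198 FPKM. SCD read 156 FPKM in control 1 against 68.8, 99.7 and 153, and 3766 and 2773 FPKM in control 2 and 3 against 2573, 2370 and 2275 FPKM. R213A 3 came close to control 1 for SCD, whereas wild type 1 stood lowest. Levels of these lipid genes differed between the tables far more than between matrices. SCD had 15663 recovered reads in control 1 and 266315 in control 3, of 17160420 and 17434029 in total. The tables may have been scaled separately, and the cause of this contrast was not tested.

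**Figure D2:**
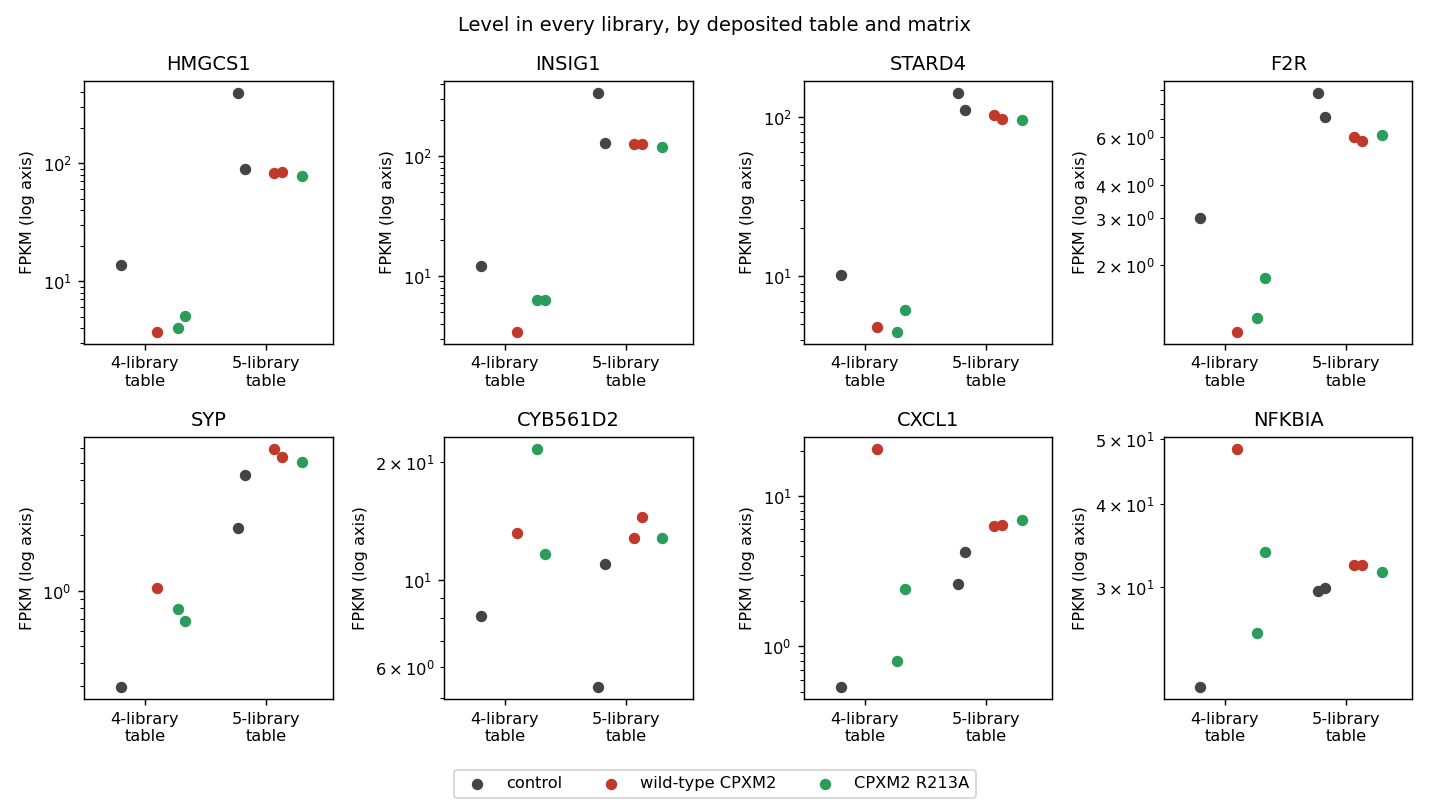
Each panel gives the FPKM of 1 gene in all 9 libraries on a log axis, with the 4-library table on the left and the 5-library table on the right of each panel, and black, red and green points for control, wild-type CPXM2 and R213A libraries. In the upper row every CPXM2 point lies below the controls of its table, with control 2 of HMGCS1 at 394 FPKM far above control 3 at 89.8 FPKM. In the lower row every CPXM2 point lies above them, with wild type 1 of CXCL1 at 20.7 FPKM far above R213A 1 at 0.796 FPKM.

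The promoters of the separated sterol genes were read because these genes stood lower together. RefSeq windows (GRCh38.p14, from 250 bases before to 50 after each start) were found for 6 of the 8. SREBP acts beside the CCAAT-binding factor NF-Y, and the CCAAT box (CCAAT, both strands) was present in 6 of 6, against 34.6% of all 35116 windows and 16 of 18 listed genes of the pathway with a window. A match describes the letters of a window and no binding. Here and for the later motifs, a gene counts as matched if any of its windows matches. The share of all windows is counted per window, so the measures are unlike. The sterol response element TCACNCCAC, searched on both strands, was present in 1 of 6, that of SREBF2, against 1.13% of all windows. HMGCS1 and STARD4, the genes with a window whose gaps exceeded the counting interval, are shown 5′ to 3′ on the gene's strand, trimmed to bases outside the gene as the deposited tables place it. Capitals mark CCAAT or its reverse complement. They cover chr5:43313513-43313612 and chr5:111512591-111512735, both on the minus strand.
HMGCS1: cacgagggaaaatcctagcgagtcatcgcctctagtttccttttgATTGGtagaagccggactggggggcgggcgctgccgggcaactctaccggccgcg
STARD4: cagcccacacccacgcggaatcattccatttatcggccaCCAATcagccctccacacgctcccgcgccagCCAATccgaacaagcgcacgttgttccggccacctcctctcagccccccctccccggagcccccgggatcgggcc

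The receptors that touch the matrix had no common direction as a list. Of 12 measured collagen receptors and integrins, 2 (16.7%) were separated, ITGB1 and ITGAV, both lower, against 5.24% of all genes. Another 2 were separated in opposite directions between the tables, as were 6.58% of all genes. The list median was -0.11 pooled and 0.06 in the fit without control 2, and by table it was 0.22 (4-library), with 5 of 12 lower, -0.20 (5-library) and -0.03 against control 3 alone. ITGB1, the beta subunit shared by the collagen-binding integrins, read 100.2 FPKM in control 1 against 62.2, 24.5 and 64.0. It read 295 and 225 FPKM in control 2 and 3 against 223, 211 and 215 FPKM. Its pooled difference was -0.58 ± 0.32 (SE; limma adjusted p = 0.566), and -0.06 against control 3 alone. ITGAV, the alpha V subunit, read 8.59 FPKM in control 1 against 4.03, 4.01 and 4.67, and 41.6 and 37.8 FPKM in control 2 and 3 against 34.6, 34.3 and 36.4 FPKM.

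ITGA2 and DDR1 were not separated. ITGA2, the alpha subunit of a main collagen integrin, read 1.37 FPKM in control 1 against 1.29, 0.410 and 0.550, and 8.48 and 9.59 FPKM in control 2 and 3 against 10.1, 8.70 and 11.8 FPKM. DDR1, the discoidin receptor of epithelial cells, read 2.96 FPKM in control 1 against 4.05, 3.9998 and 3.76, and 5.38 and 4.16 FPKM in control 2 and 3 against 4.26, 3.61 and 4.16 FPKM. It stood higher in the 4-library table by 0.32 and lower in the 5-library table by -0.20, or -0.05 against control 3 alone. DDR2, its relative in mesenchymal cells, stayed at or below 0.666 FPKM in every library and was not tested.

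Among 18 focal adhesion genes 5 (27.8%) were separated lower and 0 higher, against 5.24% and 3.49% of all genes tested. They were PTK2, the focal adhesion kinase, the adaptors LIMS1 and CRK, the actin crosslinker ACTN4 and TLN1, the talin that joins integrins to actin. None passed the test. PTK2 read 16.9 FPKM in control 1 against 8.31, 7.94 and 10.5, and 25.4 and 22.4 FPKM in control 2 and 3 against 21.6, 21.6 and 22.1 FPKM. Against control 3 alone these 5 genes differed by -0.06 to -0.01, and only CRK stayed separated once length and GC content were corrected for. Of 18 YAP/TAZ targets, which follow tension and spreading, 17 had a pooled difference below 0 (52.1% of all genes), with a list median of -0.45. Only MYOF and NUAK2 were separated, both lower (11.1%, against 5.24% of all genes). The medians by table were -0.92 (4-library) and -0.06 (5-library), or -0.01 against control 3 alone. CCN1, a YAP target, was lower than control 1 in all 3 CPXM2 libraries but read 816, 836 and 788 FPKM against 1325 and 798 FPKM in control 2 and 3.

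F2R, the thrombin receptor PAR1, was among the more even genes. It read 3.00 FPKM in control 1 against 1.13, 1.27 and 1.79, and 8.78 and 7.14 FPKM in control 2 and 3 against 6.01, 5.81 and 6.11 FPKM. The groups did not overlap in either table, and both gaps exceeded the counting interval. The pooled difference was -0.51 ± 0.15 (SE; limma adjusted p = 0.566), and -0.22 against control 3 alone. Matrix genes of the cells themselves included LAMC1, a laminin chain, with a pooled difference of -0.44 ± 0.20 (SE; limma adjusted p = 0.566), and ADAMTSL4, a fibrillin-binding matrix protein, with -0.64 ± 0.28 (SE; limma adjusted p = 0.566). P4HA2, a prolyl hydroxylase of collagen, stood higher, at 0.972 FPKM in control 1 against 4.69, 1.17 and 1.04 and at 2.83 and 3.70 FPKM in control 2 and 3 against 3.96, 4.05 and 4.41 FPKM. Its higher mean in the 4-library table lay mostly in wild type 1.

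Chemokine and NF-kB genes stood higher. Of 15 measured members of that list 4 (26.7%) were separated higher and 0 lower, against 3.49% and 5.24% of all genes tested. They were the chemokines CXCL1 and CXCL2, the adhesion molecule ICAM1 and NFKBIA, the inhibitor that NF-kB induces. None passed the test. In all, 12 of 15 had a pooled difference above 0 (47.9% of all genes), and the list median was 0.35, or 0.69, 0.13 and 0.10 in the 4-library table, the 5-library table and against control 3 alone. After the correction for length and GC content 1 of 15 was separated higher, and it was BIRC3, another NF-kB target.

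CXCL1 (ENSG00000163739, chromosome 4, 73869393 to 73871242, plus strand) attracts neutrophils. It read 0.535 FPKM in control 1, 20.7 in wild type 1, 0.796 in R213A 1 and 2.39 in R213A 3. In the 5-library table it read 2.58 and 4.27 FPKM in control 2 and 3 against 6.30, 6.37 and 6.89 FPKM in wild type 2, wild type 3 and R213A 2. All CPXM2 libraries lay above their controls, the 3 of the 5-library table closely together and those of the 4-library table far apart. CXCL1 had 14 reads in R213A 1 and 13 in control 1, a gap within counting error. Pooled over the tables it differed by 1.15 ± 0.62 (SE; limma adjusted p = 0.566), and 0.51 against control 3 alone. CXCL2 gave 1.05 ± 0.57 (SE; limma adjusted p = 0.566), with 0.853 FPKM in control 1 against 18.8, 1.08 and 4.10 and with 6.17 and 11.1 FPKM in control 2 and 3 against 13.6, 13.7 and 13.8 FPKM. R213A 1 held 22 reads of CXCL2 and control 1 held 24, so R213A 1 stood higher only after scaling. CXCL1 and CXCL2 are close copies of each other, so how the authors' counting shared reads between them is uncertain.

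NFKBIA read 21.2 FPKM in control 1 against 48.4, 25.5 and 33.9 in wild type 1, R213A 1 and R213A 3. It read 29.5 and 29.9 FPKM in control 2 and 3 against 32.4, 32.3 and 31.6 FPKM. The controls of the 5-library table were close to each other for this gene, and the difference there was 0.11, or 0.10 against control 3 alone. NFKBIA had 1311 reads in R213A 2 and 1271 in control 3, a gap within counting error. It was not separated after the correction for length and GC content. TNIP1, which dampens NF-kB and was not on the list but among the 57 genes beyond counting error, read 32.2 FPKM in control 1 against 53.3, 59.8 and 52.1, and 46.7 and 57.5 FPKM in control 2 and 3 against 62.4, 62.8 and 60.3 FPKM. It was chosen after its values were seen. NFKB1 itself, a subunit gene, stood lower in the 4-library table by -0.75 and was not separated.

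The kappaB motif (GGGA and TTTCC with any base between them, both strands) was present in the windows of 3 of the 4 separated genes, CXCL1, CXCL2 and NFKBIA, against 0.558% of all windows and 9 of 18 listed genes with a window. The stretches are shown 5′ to 3′ on the gene's strand for the members on which the chemokine result turns, with the match in capitals, 79, 78 and 81 bases before the RefSeq start. They cover chr4:73869193-73869392 on the plus strand, chr4:74099254-74099283 on the minus strand and chr14:35404750-35404949 on the minus strand. That of CXCL2 is short because the deposited tables place the gene's start upstream of the RefSeq start.
CXCL1: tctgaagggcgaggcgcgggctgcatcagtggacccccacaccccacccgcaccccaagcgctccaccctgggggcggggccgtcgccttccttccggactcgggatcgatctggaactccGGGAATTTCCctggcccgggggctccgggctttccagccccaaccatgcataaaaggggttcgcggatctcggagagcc
CXCL2: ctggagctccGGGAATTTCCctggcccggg
NFKBIA: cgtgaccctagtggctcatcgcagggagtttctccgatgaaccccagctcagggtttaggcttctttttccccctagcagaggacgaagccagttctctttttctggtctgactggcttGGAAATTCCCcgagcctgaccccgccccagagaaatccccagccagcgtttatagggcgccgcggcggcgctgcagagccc

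Interferon response genes included 5 of 22 (22.7%) separated higher and 0 lower, none past the test, against 3.49% and 5.24% of all genes. Among them were IFI6, IFIT3, IFITM3 and the immunoproteasome subunit PSMB9. PSMB9 read 6.18 FPKM in control 1 against 9.19, 19.3 and 9.96, and 8.39 and 7.80 FPKM in control 2 and 3 against 8.87, 9.03 and 9.13 FPKM. R213A 1 was the highest library. IFITM3 differed by 1.00 (4-library) and 0.06 (5-library), and by 0.06 against control 3 alone. The list median was 0.27, or 0.69 and 0.07 by table and 0.06 against control 3 alone. The interferon response element (TTTC, any 2 bases, TTTC, both strands) was present in 3 of 4 separated genes with a window, against 3.57% of all windows and 16 of 25 listed genes. IFITM3 belongs to a family of near-identical copies, so its counts are uncertain.

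Oxidant-response genes under NRF2 had 3 of 18 (16.7%) separated higher, against 3.49% of all genes. They were AIFM2, which guards membranes against lipid peroxides, AKR1B1, the aldose reductase, and OSGIN1. AIFM2 read 19.6 FPKM in control 1 against 47.4, 34.1 and 27.5, and 14.3 and 25.8 FPKM in control 2 and 3 against 27.1, 29.9 and 26.3 FPKM. Its pooled difference was 0.63 ± 0.22 (SE; limma adjusted p = 0.566), and 0.10 against control 3 alone. Respiratory chain genes encoded in the nucleus had 4 of 31 (12.9%) separated higher, against the same 3.49% of all genes. They were NDUFA1, NDUFB7, NDUFB9 and UQCRQ. The listed genes are short, with a median length of 2462 bases beside 4685 over all genes. NDUFB7 read 92.3 FPKM in control 1 against 161, 371 and 164, and 37.3 and 42.6 FPKM in control 2 and 3 against 44.0, 46.4 and 42.9 FPKM. The list medians by table were 0.67 (4-library) and -0.02 (5-library), or 0.02 against control 3 alone.

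Some lists stood far from control in the 4-library table but near their controls in the other, a contrast not tested for lists. All 35 ribosomal protein genes had a pooled difference above 0 (47.9% of all genes), with a median of 0.33, yet 0 were separated (8.73% of all genes). Their medians by table were 0.99 (4-library) and -0.08 (5-library), and in the latter 33 of 35 stood lower (5892 of all 11193 genes). Against control 3 alone the sign turned, with a median of 0.06 and 3 of 35 lower (5585 of all 11193 genes). RPL13 read 287 FPKM in control 1 against 633, 1009 and 551, and 279 and 244 FPKM in control 2 and 3 against 242, 269 and 243 FPKM. All 24 genes of the G2/M phase had a pooled difference below 0 (52.1% of all genes). Only 1 was separated, the spindle checkpoint kinase TTK (4.17%, against 5.24% of all genes separated lower). Their medians by table were -1.26 (4-library) and -0.03 (5-library), or -0.06 against control 3 alone.

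Stress genes under ATF4 followed that order. Of 21 measured members 19 had a pooled difference above 0 (47.9% of all genes), and 0 were separated (8.73% of all genes). Their medians were 0.92 (4-library) and 0.13 (5-library), and -0.02 against control 3 alone. TRIB3, an ATF4 target, read 11.6 FPKM in control 1 against 316, 23.2 and 61.2, but 63.6 and 61.6 FPKM in control 2 and 3 against 60.1, 67.8 and 61.2 FPKM. TOP2A, the topoisomerase of dividing cells, read 60.9 FPKM in control 1 against 6.52, 17.5 and 28.7, and 56.6 and 44.3 FPKM in control 2 and 3 against 44.6, 39.5 and 42.7 FPKM. The limma test of the difference between the tables gave adjusted p = 0.278 for TRIB3 and 0.233 for TOP2A.

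**Figure D3:**
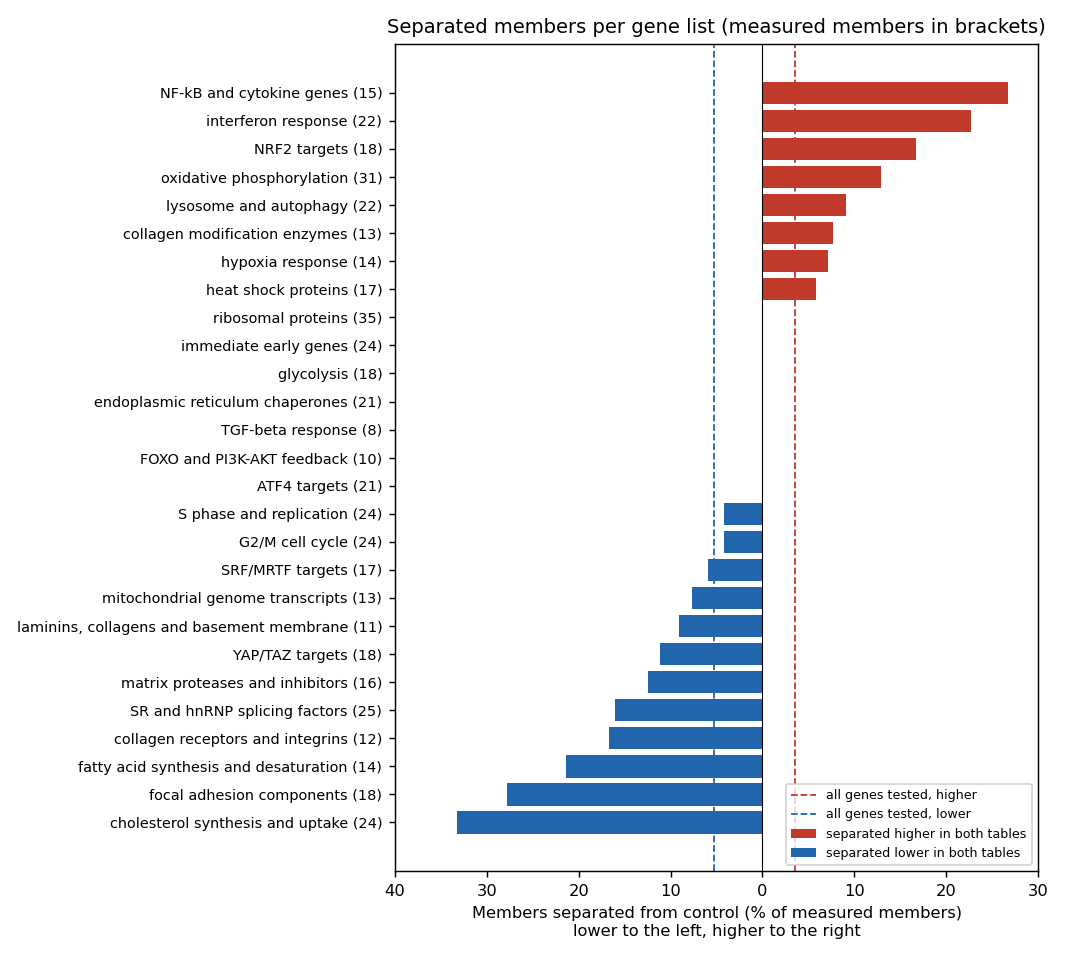
Bars give, for each of 27 gene lists, the share of measured members separated lower (blue, to the left) or higher (red, to the right) in both tables, with the number measured in brackets and the share of all genes tested as dashed lines (5.24% lower, 3.49% higher). Cholesterol synthesis reaches 33.3% lower and the NF-kB list 26.7% higher, while ribosomal proteins and ATF4 targets have none.

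Among separated protein-coding genes with the smallest pooled p, those that stood higher were led by proteins of varied function. SYP, the synaptic vesicle protein synaptophysin, read 0.297 FPKM in control 1 against 1.03, 0.792 and 0.678, and 2.21 and 4.29 FPKM in control 2 and 3 against 5.96, 5.35 and 5.01 FPKM. Pooled over the tables it differed by 0.59 ± 0.17 (SE; limma adjusted p = 0.566), and 0.28 against control 3 alone. CYB561D2, a cytochrome b561-type membrane protein, read 8.13 FPKM in control 1 against 13.2, 21.7 and 11.7, and 5.34 and 11.001 FPKM in control 2 and 3 against 12.8, 14.5 and 12.8 FPKM. SYP and CYB561D2 were the 2 of the 10 separated protein-coding genes with smallest p in this direction whose gaps exceeded counting error in both tables. The other 8 were YJEFN3, ZNHIT2, SNCG, TST, CAMK2N2, ABHD8, ARMC7 and MSTO1, with differences of 0.52 to 0.82.

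On the lower side the 10 separated protein-coding genes of smallest p included HMGCS1, STARD4 and F2R, described with the sterol and receptor genes, and NAB1, RBM25, MMD, CSNK2A3 and EIF3A. EIF3A, the largest part of a translation initiation factor, read 54.1 FPKM in control 1 against 24.8, 20.2 and 31.0, and 94.0 and 52.2 FPKM in control 2 and 3 against 50.9, 47.4 and 50.2 FPKM. RBM25, a splicing factor, read 11.01 FPKM in control 1 against 3.64, 4.54 and 5.46, and 13.8 and 8.05 FPKM in control 2 and 3 against 7.33, 7.81 and 7.91 FPKM. It is 1 of 4 genes (16.0%) of 25 splicing factors that were separated lower, with HNRNPD, RBM39 and SRRM1. Of all genes, 5.24% were separated lower. For RBM39, wild type 1 read 18.67 FPKM against 18.71 in control 1. Once length and GC content were corrected for, SRRM1 and SRRM2 were separated lower, whereas RBM25, HNRNPD and RBM39 were not. CSNK2A3 is a near-identical copy of CSNK2A1, and its value is uncertain.

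The choice of the 57 genes beyond counting error required a gap from every control of a table, control 3 included. A difference from control 3 is thus partly set by that choice. Of these 57 genes, 36 kept more than 50% of their difference in the 5-library table against control 3 alone. PPL, PSMA5 and DNAJB1 are 3 of them, chosen after their values were seen. PPL, the desmosomal plakin periplakin, read 4.39 FPKM in control 1 against 0.855, 2.84 and 2.32, and 3.22 and 4.21 FPKM in control 2 and 3 against 2.79, 2.74 and 2.70 FPKM. PSMA5, a proteasome core subunit, read 21.3 FPKM in control 1 against 25.2, 34.9 and 27.0, and 18.2 and 18.1 FPKM in control 2 and 3 against 19.5, 22.1 and 20.5 FPKM. DNAJB1, a co-chaperone of HSP70, read 23.7 FPKM in control 1 against 26.6, 31.7 and 30.1, and 38.3 and 40.2 FPKM in control 2 and 3 against 43.7, 48.6 and 45.6 FPKM. Their differences in the 5-library table were -0.32, 0.18 and 0.22, and against control 3 alone -0.48, 0.18 and 0.19.

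Gene length and base composition moved with direction. Genes separated higher had a median listed length of 2992 bases and a median GC content of 55.3%, and those separated lower 6491.5 bases and 43.0%, beside 4685 bases and 48.1% over all genes. Chromosome 19 held 10.7% of the genes separated higher, 3.41% of those separated lower and 7.04% of all. Length and GC content together accounted for 33.5% of the variance of the deviation of control 1 from its table, 31.5% for R213A 1, 9.02% for wild type 3 and at most 2.07% for each other library. After removing this dependence in each library 860 genes were separated, of which 553 were so before in the same direction (220 higher, 333 lower). They are 56.6% of the genes separated before and 64.3% of those separated after. The part of length and GC content in single genes was not tested further. Cholesterol genes separated lower then numbered 7 of 24, NF-kB genes separated higher 1 of 15, interferon genes separated higher 3 of 22 and focal adhesion genes separated lower 1 of 18. Of all genes with a GC content, 3.55% were then separated higher and 4.14% lower.

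**Figure D4:**
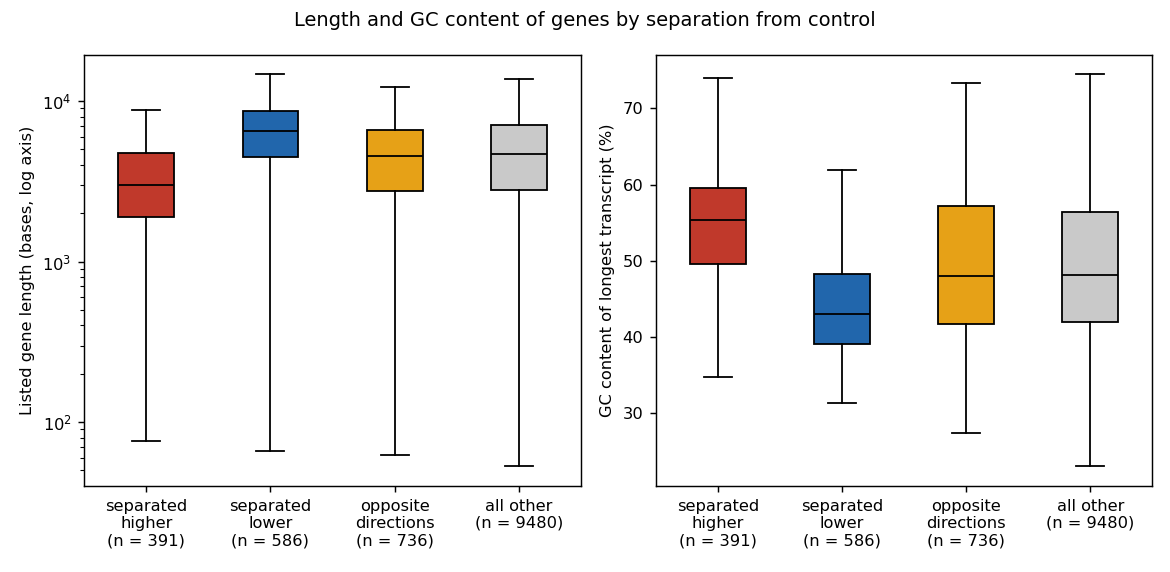
Boxes give the median and quartiles of the listed gene length (bases, log axis) and of GC content (percent) for genes separated higher, separated lower, separated in opposite directions and all others, with whiskers to the farthest values that are not outlying and outlying values not drawn. Genes separated higher are shorter and richer in GC (medians 2992 bases and 55.3%) than those separated lower (6491.5 bases and 43.0%), and genes with opposite directions have medians of 4572.5 bases and 48.1%.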

How the data were processed

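RNA from the 9 samples was extracted with TRIzol and sequenced with the Illumina TruSeq stranded mRNA kit, per the labels' protocols. The authors deposited FPKM values per gene in 2 tables, with hg38 and bcl2fastq named per the submitters' processing notes. The sources used here do not give the aligner, the counter, its strand setting or the annotation, so antisense genes and close gene copies are uncertain. Whole reads were recovered from FPKM and gene length for 100% of values, within a tolerance of 0.01 reads. These totals differed from the scaling in the deposited values by a factor of 0.850 to 1.09. Intervals from these reads cover counting error only.

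Tables were joined by gene identifier, and 58207 of 58735 identifiers received a current symbol. FPKM is not a count, so log2(FPKM + 1) was computed and fitted with limma 3.58.1 in R 4.3.3, with a mean-variance trend, the table and the matrix as terms and 6 residual degrees of freedom. Benjamini-Hochberg adjustment was made over 11193 genes, with a threshold of 0.05. Groups came from the treatment labels. A set of 33 gene lists (27 functional, 6 of cell markers) was written from textbook knowledge. The comparison, members and lists were chosen with earlier results of these data known. Named genes were, per direction, the 10 separated protein-coding genes of smallest p, up to 3 separated members per list by smallest p, and fixed genes of the matrix and the pathways. Some genes that these rules select are not reported here. Others are named as separated members of a list, or as chosen after their values were seen. The limma procedure was tested on simulated data.

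Alternatives changed the pseudocount, filter, scaling, table term, replicate block, spread model and each library in turn. The correction for length and GC content (splines with 5 degrees of freedom), the counting interval and the promoter windows were added after seeing the data.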

Additional observations from a re-analysis of the deposited data

Results flagged for a closer look

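In 4 of 59 named genes the highest or lowest of the 6 CPXM2 libraries stood apart from the rest on the log2(FPKM + 1) scale, by a gap that took up a large share of the range. Chance flags about 1 in 20 groups, and the 6 libraries come from both tables, which may be scaled separately. R213A 1 was the highest library in 2 of them. The gap was 0.854 of the range for PSMB9, where R213A 1 read 19.3 FPKM and the next library 9.96. It was 0.65 for CYB561D2, with 21.7 FPKM in R213A 1 and 14.5 in the next. Wild type 1 stood apart in the other 2. It was the highest for OSGIN1, at 22.2 FPKM with a gap of 0.663, and the lowest for ADAMTSL4, at 9.29 FPKM with a gap of 0.712.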

How the results depend on the processing

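No alternative to the pooled limma test called a gene among those with a mean of at least 1 FPKM, except library weights, which called 4 (ENSG00000248126, ENSG00000274213, MIR4442 and RNA5SP82). With no filter on low values the pooled test called 5 genes, 557 were called for a difference between tables, and 99 were called within the 5-library table. Leaving out each library in turn, the pooled test called 0 to 0 genes (133 to 1884 at an unadjusted p under 0.05), 0 to 22 were called for a difference between tables, and 0 to 5132 within the 5-library table, the last without control 3, where the lone control is assumed to vary like the CPXM2 libraries. The count of genes separated in both tables ranged from 1040 to 3323 over the 8 sets of libraries that keep a control in each table, and none could be formed without control 1. It was 57 where the gap had to exceed the counting interval, 37 where each table had to differ by at least 0.5, and 5726 by sign alone. The count at least 2-fold from control 1 was 2026 with a pseudocount of 0.1, 587 after correction for length and GC content, and 940 to 1668 without single libraries. With the replicate number as a block the pooled test called 0 genes, with 705 at an unadjusted p under 0.05. Same-numbered libraries correlated from -0.70 to 0.84, with 7 of 9 pairs over 0.1. Those 7 pairs lie within a table, whereas R213A 3 with control 3 (-0.65) and with wild type 3 (-0.70) crosses tables. Different-numbered pairs within a table correlated from 0.31 to 0.81, so the correlations cannot tell pairing from the table. No label says what a number shares, and the numbers were not taken to pair libraries.

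Of 64 named genes, 3 changed sign. DDR1 turned to -0.0295 with no table term, -0.0257 with the replicate block, -0.0284 with library weights, -0.000598 in limma-voom, -0.0546 after the length and GC correction, and lay between -0.198 and 0.136 without single libraries, below 0 without control 1, control 3, wild type 1, R213A 1 or R213A 3. ITGA2 turned to 0.0721 with library weights, 0.106 after that correction and ranged from -0.199 to 0.153 without single libraries, the last without control 1. RPL13 ranged from -0.0567 to 0.669, the first without control 1. Of the lists whose medians are given, those of ribosomal proteins (-0.08), respiratory chain genes (-0.02) and mitochondrial genome transcripts (0.19) changed sign without control 1. The causes were not tested. With 1 control in the 4-library table, the spread of its control is unknown.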

Other observations

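Transcripts of the mitochondrial genome differed in order from the nuclear respiratory genes. Of 13 protein-coding transcripts measured, 9 had a pooled difference below 0, as had 52.1% of all genes. The list median was -0.13, or -0.52 in the 4-library table, 0.19 in the 5-library table and -0.25 against control 3 alone. MT-ND4, a subunit of complex I, was the only 1 of the 13 separated (7.69%, against 5.24% of all genes separated lower). MT-ND4 read 2218 FPKM in control 1 against 1285, 1732 and 1677, and 1788 and 1935 FPKM in control 2 and 3 against 1771, 1552 and 1573 FPKM. Its pooled difference was -0.32 ± 0.21 (SE; limma adjusted p = 0.581). Against control 3 alone all 13 list members stood lower, as did 5585 of all 11193 genes.

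SLPI, a secreted protease inhibitor of epithelia, had a small unadjusted p but was not separated. It read 0.716 FPKM in control 1 against 3.04, 2.84 and 2.19, and 0.204 and 0.749 FPKM in control 2 and 3 against 2.15, 1.16 and 0.576 FPKM, so R213A 2 lay below control 3. CTSA, the protective protein of the lysosome, was separated higher, with a pooled difference of 0.25 ± 0.14 (SE; limma adjusted p = 0.566). CDH2, the N-cadherin of mesenchymal cells, was separated lower, at 6.09 FPKM in control 1 against 3.12, 2.20 and 4.44, and at 14.7 and 15.0 FPKM in control 2 and 3 against 13.95, 13.5 and 13.5 FPKM. Its pooled difference was -0.37 ± 0.19 (SE; limma adjusted p = 0.566), with a gap within counting error in at least 1 table. Of 3 measured mesenchymal markers, 2 had a pooled difference below 0 and 1 above. The summed level of that list was 91.2 FPKM in control 1 against 135 to 219 FPKM in its table. In the 5-library table the sum was 133 to 228 FPKM in the controls against 122 to 132 FPKM.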
